A study of Mus musculus with 6 samples.

Results

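A set of 9 regulators of the cranial mesenchyme and the neural crest were examined in embryonic mouse heads: Alx1, Alx4, Prrx1, Prrx2 and Twist1 of the head mesenchyme, and Tfap2a, Tfap2b, Sox10 and Foxd3 of the neural crest. They were chosen by name, as the probe sets annotated to exactly 1 of these symbols, with no limit on brightness. This gave 9 probe sets, 1 per gene, of 21789 probe sets with 1 gene symbol and 35556 in all. The study compared 3 heads of embryos labelled Tasp1 knockout (KO, Tasp1-/-) with 3 heads of embryos labelled wild type (WT), all at stage E10.5 on the background given as C57Bl6 and all from intercrosses of Tasp1+/- mice. Each head, dissected to the forebrain and midbrain vesicles (prosencephalon and mesencephalon), was read on its own array. Tasp1 encodes Taspase1, a protease that cuts precursor proteins, among them that of the transcription factor TFIIA and the histone methyltransferases MLL1 and MLL2, and the comparison asked which transcripts depend on it during development. The sources used here do not say how the Tasp1 allele was made.

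Neural crest cells leave the border of the closing neural tube and migrate under the surface ectoderm. They form much of the skull and face, part of the cranial ganglia, the glia of these ganglia, and pigment cells. Foxd3, a forkhead factor, and the AP-2 factors encoded by Tfap2a and Tfap2b act early in the crest, and Sox10, an HMG-box factor, marks migrating crest and is later kept in glia and melanoblasts. In the mesenchyme around the brain and in the facial primordia, the homeobox genes Alx1, Alx4, Prrx1 and Prrx2 and the basic helix-loop-helix gene Twist1 take over, and mouse mutants of these genes have defects of the skull or face. The AP-2 factors are also expressed in surface ectoderm and in facial mesenchyme.

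All values are log2 signals as deposited. A difference is always the KO-labelled mean less the WT-labelled mean, so a negative one means a lower signal in KO-labelled heads. The 6 arrays were alike over the probe sets with 1 symbol, with correlations between arrays, across probe sets, from 0.996 to 0.998. Tasp1 itself showed no loss of signal under the KO label, at 8.63, 8.63 and 8.498 against 8.10, 8.45 and 8.49 in the WT-labelled heads. The sources used here do not place its probe set inside or outside the altered part, so this signal is no check of the labels, and groups are named by their label only. WT 2 had the pattern of a female embryo, with an Xist signal of 12.3 against 4.90 to 5.24 in the other heads, which had the pattern of males. The groups thus differed in their sex ratio, and Sox10, Foxf1 and Nefm, whose differences shrank most without WT 2 among the genes named here with an unadjusted p under 0.05, are also given without it. On the first principal component WT 1 lay at 16.9 and the other heads between −10.1 and 5.15.

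The promoters of 3 of the regulators are shown because these genes stand for the patterns described here: Foxd3 read lower in every KO-labelled head, Twist1 differed least between the groups, and Prrx1 varied most between heads within a group. RefSeq promoter windows (build GRCm38.p6, 250 bases before to 50 after the start, 5′ to 3′ on the gene's strand) were at hand for 6 of the 9 genes, 7 windows in all. The genes without one were Alx1, Alx4 and Sox10. Capitals mark the motifs searched on either strand, namely TATAAA as the core of the TATA box, the CCAAT box, the core GGGCGG of the GC box and the E-box with letters CACGTG, none of which overlaps another here. TFIIA works with the TATA-binding protein, which was the reason for including TATAAA. The windows lie at chr4:99656049-99656348 on the plus strand for Foxd3, chr12:33957421-33957720 on the plus strand for Twist1 and chr1:163313601-163313900 on the minus strand for Prrx1.
Foxd3: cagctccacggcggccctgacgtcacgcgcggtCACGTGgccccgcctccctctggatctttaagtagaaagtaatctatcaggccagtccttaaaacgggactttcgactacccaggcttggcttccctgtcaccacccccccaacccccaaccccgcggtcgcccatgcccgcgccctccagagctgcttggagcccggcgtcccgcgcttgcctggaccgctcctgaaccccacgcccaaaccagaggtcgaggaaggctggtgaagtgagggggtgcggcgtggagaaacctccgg
Twist1: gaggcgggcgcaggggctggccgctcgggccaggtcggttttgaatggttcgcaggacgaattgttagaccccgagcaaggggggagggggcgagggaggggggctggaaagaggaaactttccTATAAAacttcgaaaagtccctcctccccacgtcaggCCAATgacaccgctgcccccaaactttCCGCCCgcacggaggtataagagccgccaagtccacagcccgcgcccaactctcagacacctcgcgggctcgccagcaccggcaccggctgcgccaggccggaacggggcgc
Prrx1: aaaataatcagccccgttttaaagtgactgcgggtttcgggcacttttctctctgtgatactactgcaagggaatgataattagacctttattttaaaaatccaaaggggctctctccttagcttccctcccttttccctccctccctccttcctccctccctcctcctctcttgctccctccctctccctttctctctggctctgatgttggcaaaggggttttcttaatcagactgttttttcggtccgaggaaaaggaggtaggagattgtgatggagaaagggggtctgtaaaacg
The Twist1 window held 1 TATAAA, beginning 126 bases before the start, as well as 1 CCAAT box and 1 GC box, and the Foxd3 window held 1 CACGTG, 217 bases before the start. The Prrx1 window held none of the 4 motifs. Over all 32851 promoter windows, 13.6% held the TATAAA letters, 37.4% the CCAAT letters, 35.7% the GC-box core and 7.15% the E-box. Of the 7 windows of these regulators, that of Twist1 alone held TATAAA, and whether it acts there as a TATA box was not tested. The Foxd3 and Twist1 windows had 25 and 27 CpG dinucleotides, against a median of 7 over all windows, and that of Prrx1 had 6.

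Over the 21789 probe sets, 0 (0%) passed an adjusted p of 0.05 between KO-labelled and WT-labelled heads by limma, and 0 of the 9 regulators did. At an unadjusted p under 0.05 there were 1354 probe sets (6.21%). The regulators divided into 7 whose differences lay between −0.053 and 0.048, among them all 5 mesenchyme genes, and 2 dim crest genes, Sox10 and Foxd3, that read lower in KO-labelled heads without passing the adjusted test. These were the only regulators with an unadjusted p under 0.05, and the only ones whose groups did not overlap, 2 of 9 (22.2%) where 10.9% of all probe sets had groups that did not overlap and 6.76% had them with the KO-labelled heads lower. In all 6 of the 9 read lower in KO-labelled heads, where 56.3% of all probe sets did, and their median difference was −0.02 beside −0.01 over all probe sets. That median ran from −0.09 to 0.03 over the 15 alternative settings.

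**Figure D1:**
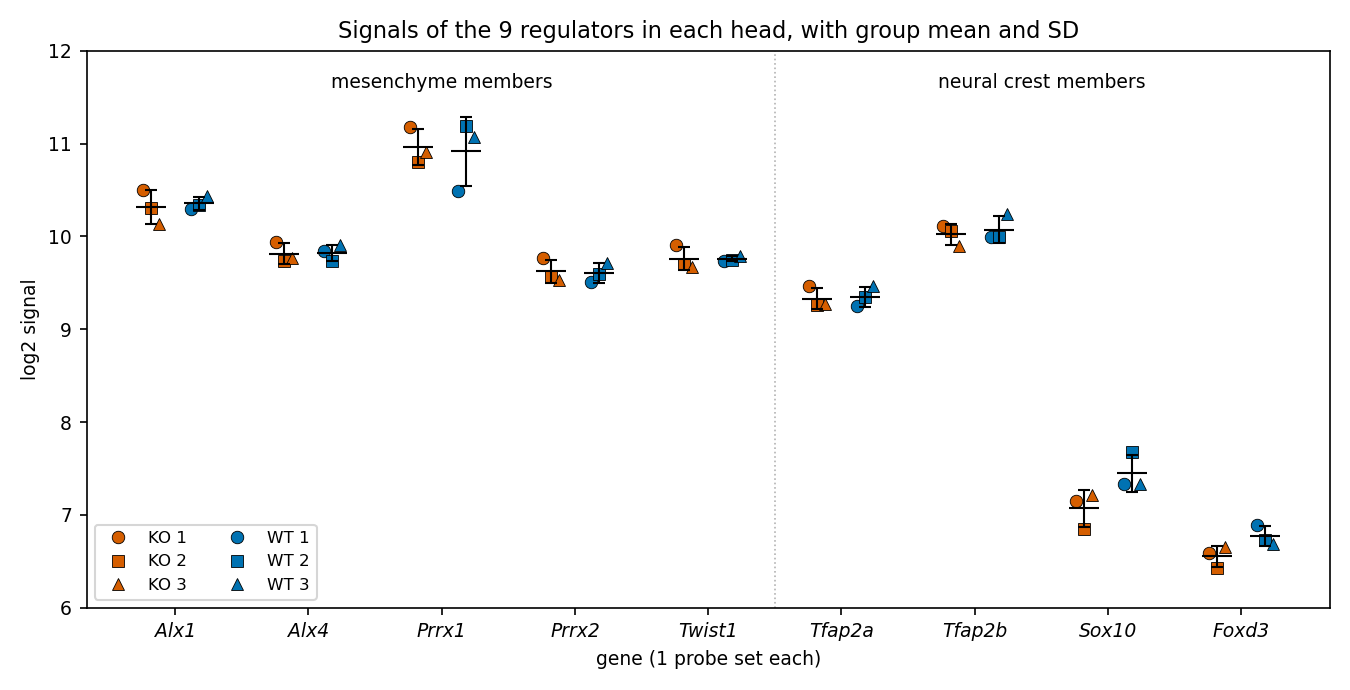
Log2 signal (vertical axis) of each of the 9 regulators (horizontal axis) in the 3 KO-labelled heads (orange, left) and the 3 WT-labelled heads (blue, right), with the group mean and SD as black bars. The groups overlap for 7 genes and do not overlap for Sox10 and Foxd3, with each KO-labelled head lower.

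Alx1 and Alx4 encode aristaless-like homeodomain factors of the mesenchyme around the forebrain and nasal region. Alx1 (probe set 10372145, chromosome 10) read 10.499, 10.307 and 10.132 in KO-labelled heads, against 10.30, 10.34 and 10.43 in WT-labelled heads. The KO-labelled heads lay on both sides of the WT-labelled ones, and their own spread (SD 0.18, against 0.07 for WT-labelled heads, 3 heads a group) was wider than the difference of −0.04 (SE 0.08). Alx4 (probe set 10474081, chromosome 2) read 9.94, 9.74 and 9.77 in KO-labelled heads, against 9.84, 9.73 and 9.90 in WT-labelled heads, a difference of −0.0084 (SE 0.07). KO 1 was the highest head, and the other KO-labelled heads lay within the WT-labelled range. The 95% confidence interval of the KO over WT ratio of signals was 0.854 to 1.10 for Alx1 and 0.894 to 1.11 for Alx4.

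Prrx1 and Prrx2 encode paired-related homeodomain factors that act together in the skull base and lower jaw. Prrx1 (probe set 10359624, chromosome 1) read 11.17, 10.80 and 10.91 in KO-labelled heads, against 10.49, 11.19 and 11.07 in WT-labelled heads. WT 1 was the lowest of all 6 heads, 0.64 below the mean of WT 2 and WT 3, so the WT-labelled range of 0.70 far exceeded the group difference of 0.048 (SE 0.16). Without WT 1 the Prrx1 difference was −0.17, and without KO 1 it was −0.06. Over all 6 heads the SD of Prrx1 exceeded that of 98.9% of probe sets. Its interval was the widest of the mesenchyme genes, with ratios from 0.814 to 1.31. Prrx2 (probe set 10471067, chromosome 2) read 9.77, 9.57 and 9.53 in KO-labelled heads, against 9.50, 9.60 and 9.72 in WT-labelled heads, with a difference of 0.017 (SE 0.08). As with Prrx1, WT 1 was the lowest head for Prrx2, but by less.

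Barx1 and Lhx8, genes of the jaw and palate mesenchyme, chosen after their values were seen, shared the low reading of WT 1. Barx1, a homeobox gene of the first pharyngeal arch, read 9.14, 8.25 and 8.51 in KO-labelled heads, against 7.49, 9.12 and 8.55 in WT-labelled heads. Lhx8, a LIM-homeobox gene of the same arch and of the ventral forebrain, read 8.88, 8.16 and 8.52 in KO-labelled heads, against 7.31, 8.86 and 8.67 in WT-labelled heads. For both genes, as for Prrx1, WT 1 was lowest, and KO 1 and WT 2 were the highest heads. The low reading of WT 1 did not extend to all mesenchyme genes. WT 1 was the highest head for Six2, Foxd1, Foxf2, Col1a1 and Lum, at 10.32, 9.78, 9.35, 9.75 and 9.87. Whether the amount of facial tissue left on each head differed was not tested.

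Twist1, a basic helix-loop-helix factor needed for cranial neural tube closure and for the crest mesenchyme, had the smallest difference. Its signal (probe set 10395320, chromosome 12) was 9.90, 9.71 and 9.67 in KO-labelled heads, against 9.74, 9.75 and 9.79 in WT-labelled heads. The 3 WT-labelled heads lay within 0.05 of each other and the KO-labelled heads fell on both sides of them. The difference was 0.0016 (SE 0.07, limma adjusted p = 0.998), and the 95% interval of the ratio, 0.904 to 1.11, leaves changes within about those bounds undetermined. Apart from Prrx1, the intervals of the other 4 mesenchyme genes stayed between ratios of 0.854 and 1.14.

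Of the crest genes, those of the AP-2 factors had small differences, as the mesenchyme genes did. Tfap2a (probe set 10408798, chromosome 13) read 9.46, 9.26 and 9.27 in KO-labelled heads, against 9.25, 9.34 and 9.46 in WT-labelled heads. Each group had 1 head near 9.46, and the difference was −0.02 (SE 0.08). Tfap2b (probe set 10345016, chromosome 1) read 10.11, 10.06 and 9.90 in KO-labelled heads, against 9.989, 9.995 and 10.24 in WT-labelled heads, a difference of −0.053 (SE 0.08). WT 3 was the highest head for both AP-2 genes. Across these 7 genes with small differences limma's adjusted p ran from 0.941 to 0.998 and the exact two-sided permutation p over the heads from 0.7 to 1. Such p-values do not show that a gene is unchanged, least of all for Prrx1 with its wide interval.

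Sox10 had the largest difference of the 9. Its signal (probe set 10430458, chromosome 15) was 7.15, 6.84 and 7.22 in KO-labelled heads, against 7.33, 7.68 and 7.33 in WT-labelled heads. Every KO-labelled head was below every WT-labelled head, by 0.12 at the nearest pair, KO 3 and WT 1. KO-labelled heads averaged 7.07 ± 0.20 and WT-labelled heads 7.45 ± 0.20 (SD, 3 heads a group), a ratio of 0.769 (95% interval 0.639 to 0.926). The difference of −0.38 (SE 0.12) had an unadjusted p of 0.0100, rank 311 of all probe sets, and did not pass the adjusted test (limma, adjusted p = 0.699). The exact permutation test gave a two-sided p of 0.1, the smallest that 3 against 3 can give. WT 2, the female-pattern head, was the highest, and without it the difference was −0.26. In bulk tissue, fewer Sox10-expressing cells and less Sox10 RNA per cell cannot be told apart.

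Foxd3 (probe set 10506150, chromosome 4) read 6.59, 6.43 and 6.65 in KO-labelled heads, against 6.89, 6.73 and 6.69 in WT-labelled heads. The groups did not overlap, but KO 3 and WT 3 were 0.04 apart. KO-labelled heads averaged 6.56 ± 0.11 and WT-labelled heads 6.77 ± 0.11 (SD, 3 heads a group), and the difference was −0.22 (SE 0.09, limma adjusted p = 0.791, unadjusted p = 0.033, exact permutation two-sided p = 0.1). Foxd3 had an unadjusted p under 0.05 in 9 of the 14 alternative settings that tested it. The p was 0.137 without KO 2, 0.130 without WT 1, 0.052 without KO 1, 0.058 with all probe sets of the table and 0.053 with the replicate number as a block. With 64 added on the linear scale, which damps dim signals, the Foxd3 difference was −0.13. Foxd3 was brighter than only 33.9% of probe sets with 1 symbol and Sox10 than 42.5%, while the other 7 genes lay between 73.1% and 93.5%. The values used here carry no detection call, so how much of these dim signals is background is not known, and the ratios are of signals and not of transcripts.

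**Figure D2:**
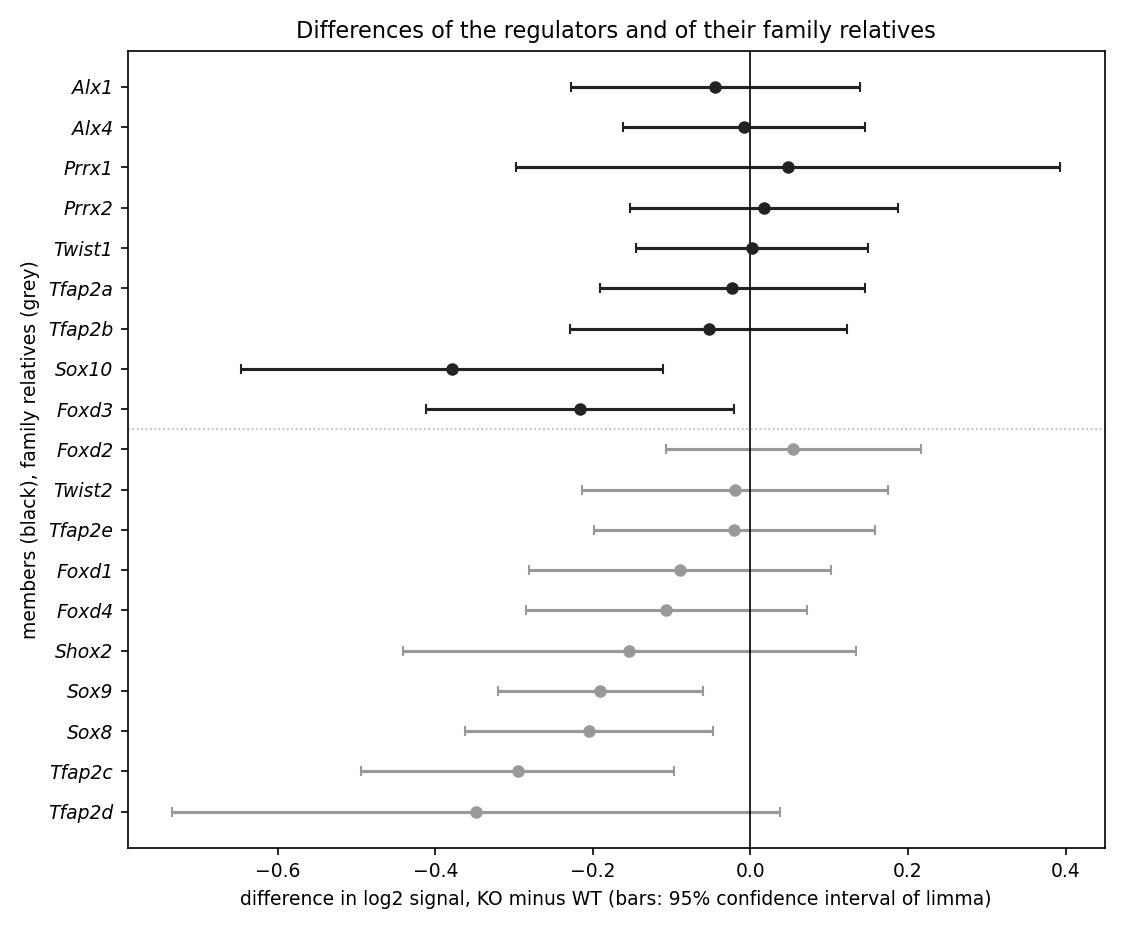
Difference in log2 signal, KO-labelled minus WT-labelled heads (horizontal axis), with limma's 95% confidence interval, for the 9 regulators (black) and their 10 measured family relatives (grey). The intervals of Sox10 and Foxd3 among the regulators, and of Sox9, Sox8 and Tfap2c among the relatives, lie below 0 before adjustment.

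The regulators other than Sox10 and Foxd3 varied together from head to head rather than between the groups. In KO 1 and in WT 3 all 7 of these genes read above their own mean over the 6 heads, and in KO 3 none of them did. KO 1 was the highest head for 4 of the 5 mesenchyme genes, the exception being Prrx1, and the mean deviation of the mesenchyme genes was 0.16 in KO 1, −0.07 in KO 2 and −0.09 in KO 3, against −0.12, 0.03 and 0.09 in WT 1, WT 2 and WT 3. All 21 pairs among the 7 had a positive Pearson correlation over the 6 heads (0.18 to 0.96, median 0.75). This is a description only, as genes read in the same head share its dissection and RNA. Prrx2 and Tfap2a were the closest pair. Sox10 and Foxd3 did not follow this pattern, with correlations from −0.33 to 0.31 with the other 7 and 0.73 with each other. Both read lower in every KO-labelled head, so the group difference enters the 0.73. Their correlation within the groups was not tested. For both, KO 2 was the lowest head, but the highest was WT 2 for Sox10 and WT 1 for Foxd3.

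**Figure D3:**
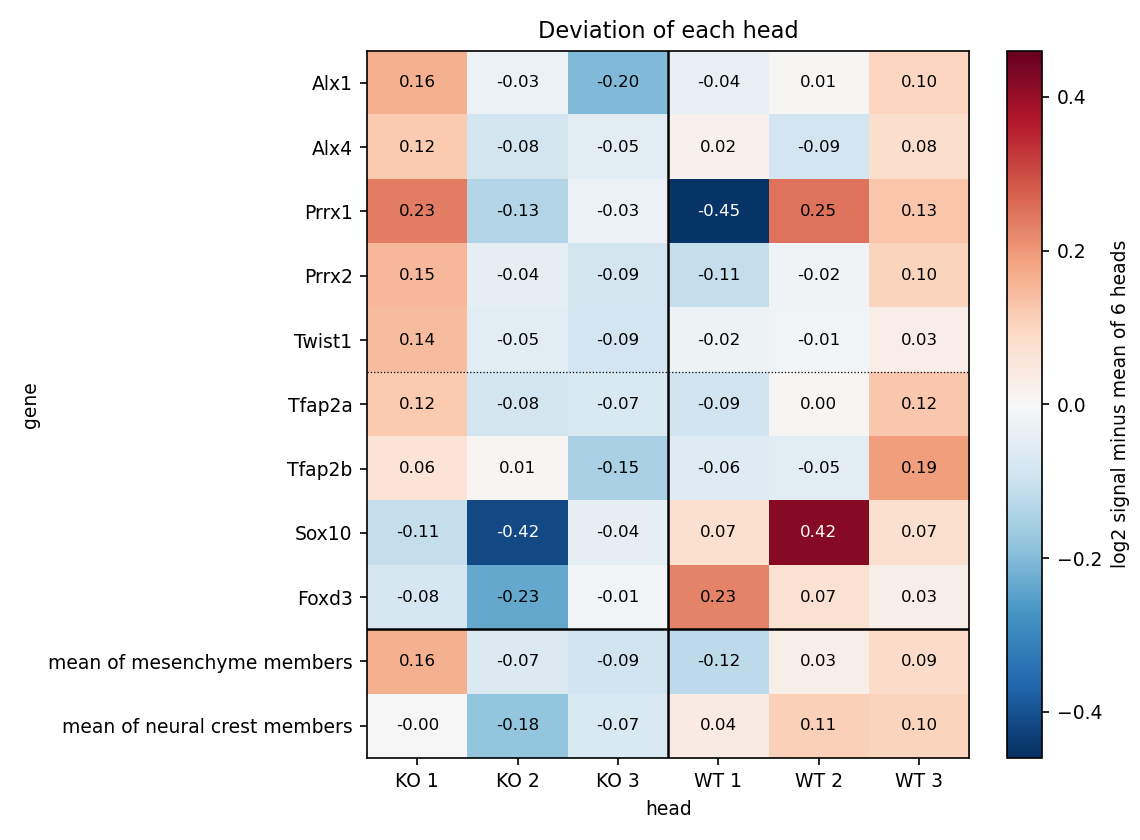
Deviation of each head (columns, KO-labelled heads left) from the mean log2 signal of all 6 heads, for the 9 regulators and for the means of the mesenchyme and neural crest regulators (rows). KO 1 and WT 3 are above the mean for the first 7 genes, Prrx1 is low in WT 1, and Sox10 and Foxd3 are below it in each KO-labelled head.

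Genes whose signals followed the mean of the mesenchyme regulators most closely over the 6 heads were Cep68, Stard9, Rab40c, Zswim8 and Hdac7 (Pearson r 0.984 to 0.991, 6 heads, out of 11794 genes above the brightness limit). The largest group difference among these genes was 0.03, that of Stard9. The mean of the crest regulators was followed most closely by Plekhg5, 4930445K14Rik, Bag3, Miga2 and Sox9 (r 0.980 to 0.994). With 6 heads and this many genes, such r values describe the ordering of these heads only. Sox9, itself a crest regulator of the same SOX subgroup as Sox10, was among the 5 nearest profiles. The groups did not overlap for the crest mean or for Sox9, so the group difference enters this r. That mean joins Sox10 and Foxd3 with Tfap2a and Tfap2b, which they did not follow.

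Family relatives of the regulators gave 10 measured genes. Of these, 0 passed the adjusted test, 9 read lower in KO-labelled heads and the median difference was −0.13, beside −0.01 over all probe sets. At an unadjusted p under 0.05, 3 were lower and 0 higher, where 3.89% of all probe sets were lower and 2.32% higher at that level. Sox9, needed for crest survival and cartilage, read 10.78, 10.56 and 10.63 in KO-labelled heads, against 10.81, 10.88 and 10.85 in WT-labelled heads (difference −0.19, SE 0.06, limma adjusted p = 0.678). Sox8, the remaining relative of the Sox10 subgroup, read 8.09, 8.23 and 8.25 in KO-labelled heads, against 8.35, 8.36 and 8.47 in WT-labelled heads (difference −0.21, SE 0.07, limma adjusted p = 0.734). For each of the 3 genes of this subgroup, Sox8, Sox9 and Sox10, every KO-labelled head was below every WT-labelled head, where 6.76% of all probe sets were so ordered, and the subgroup was singled out after these values were seen. The subgroup is not specific to crest, as Sox9 is also expressed in neural progenitors. Tfap2c, an AP-2 gene of surface ectoderm and crest that lies on chromosome 2 as Tasp1 does, read 8.11, 7.89 and 7.80 in KO-labelled heads, against 8.33, 8.15 and 8.20 in WT-labelled heads (difference −0.30, SE 0.09, limma adjusted p = 0.654). Of the genes named below with an unadjusted p under 0.05, Dlx2, Lhx2 and Neurod1 also lie on chromosome 2. Tfap2d, an AP-2 gene of the midbrain, had the lowest difference of the relatives, −0.35, and a KO-labelled range from 6.57 to 7.33 that overlapped the WT-labelled one. Its value rested on single heads, at −0.17 without KO 3 and −0.55 without KO 1. Twist2, a close relative of Twist1, differed by −0.02.

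Other neural crest regulators (19 of 21 measured) had a median difference of −0.07, with 14 lower and 5 higher in KO-labelled heads and 0 past the adjusted test. Sox9, the distal-less gene Dlx2 (−0.24), the nuclear receptor gene Nr2f1 (−0.14) and Msx2 (−0.20), a homeobox gene of crest and skull, had an unadjusted p under 0.05, 4 of 19 lower and 0 higher, where 3.89% of all probe sets were lower and 2.32% higher at that level. Without WT 1 the Msx2 difference was −0.13. Dlx2 and Nr2f1 are also expressed in the forebrain. The genes of crest delamination, Snai1 and Snai2, differed by −0.02 and 0.10 and did not pass.

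Genes that SOX10 regulates or that mark crest glia and pigment cells (12 of 14 measured) had a median difference of −0.08, with 8 lower and 4 higher. The lower ones were led by pigment genes. Dct, a melanin synthesis enzyme gene that SOX10 activates, read 6.93, 6.73 and 6.16 in KO-labelled heads, against 7.34, 7.13 and 7.16 in WT-labelled heads (difference −0.60, SE 0.16, limma adjusted p = 0.584). Its KO-labelled heads were all below the WT-labelled ones, KO 3 the farthest, and without KO 3 the difference was −0.37. The Dct signal was dim, brighter than only 37.8% of probe sets with 1 symbol. Pmel, which encodes the fibril protein of melanosomes, differed by −0.50 and Tyr, the first enzyme of melanin synthesis, by −0.35 at a dim signal of 4.95 against 5.30. These pigment genes are also expressed in the pigment epithelium of the eye, so at this stage their signal does not separate crest from eye. Mitf, a regulator of both pigment lineages, differed by 0.08 on the brighter of its 2 probe sets. Of the receptor genes in the list, Erbb3 differed by −0.0017, Ngfr by 0.03, Ret by 0.03 and Kit by 0.0031. Ednrb, the endothelin receptor gene of migrating crest, differed by −0.19 with overlapping groups, and by −0.086 without KO 3. None of these passed the adjusted test.

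Regulators of the cranial mesenchyme beyond the 5 described (27 of 32 measured) had a median difference of −0.05, with 16 lower and 11 higher and 0 past the adjusted test. Dlx5, a homeobox gene of the lower jaw and nasal placode, differed by −0.30. Foxf1, a forkhead gene of mesenchyme that responds to hedgehog signals, differed by 0.26 on its brighter probe set and by 0.18 on the other. Without WT 2, the female-pattern head, the difference on the brighter Foxf1 probe set was 0.12. These 2 of the 27 genes had an unadjusted p under 0.05, near the 6.21% of all probe sets. Matrix and receptor genes of mesenchyme (17 of 18 measured) had a median of 0.0011, with 9 higher and 8 lower. Dcn (0.36) and Vcan (0.11), which encode proteoglycans of the matrix, and Crabp1 (−0.11), a retinoic acid binding protein gene of crest, had an unadjusted p under 0.05, and limma's adjusted p ran between 0.782 and 0.791 for them, 3 of 17 beside the same 6.21%. The platelet-derived growth factor receptor gene Pdgfra differed by 0.03 and the collagen gene Col1a2 by −0.08, both with overlapping groups.

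Signals and receptors that act on the crest (24 of 25 measured) had a median of 0.0095, with 13 higher and 11 lower. Cxcl12, a chemokine gene, differed by −0.16 and Wnt3a, a roof plate WNT gene, by −0.25, with an unadjusted p under 0.05 each and adjusted p-values in limma of 0.782 and 0.791. Without KO 1 the Wnt3a difference was −0.15, and its signal was dim, brighter than only 39.7% of probe sets with 1 symbol. Fgf8, Bmp4 and Edn1, which pattern the facial primordia, differed by 0.02, −0.03 and −0.08. Over all 104 related genes measured, 13 (12.5%) were lower and 3 (2.88%) higher at an unadjusted p under 0.05, beside 3.89% lower and 2.32% higher over all probe sets. Groups did not overlap for 11 (10.6%), close to the 10.9% of all probe sets. The lowest adjusted p in limma was 0.235, that of Pmel. The lists share genes with each other, and genes measured in the same heads are not independent.

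**Figure D4:**
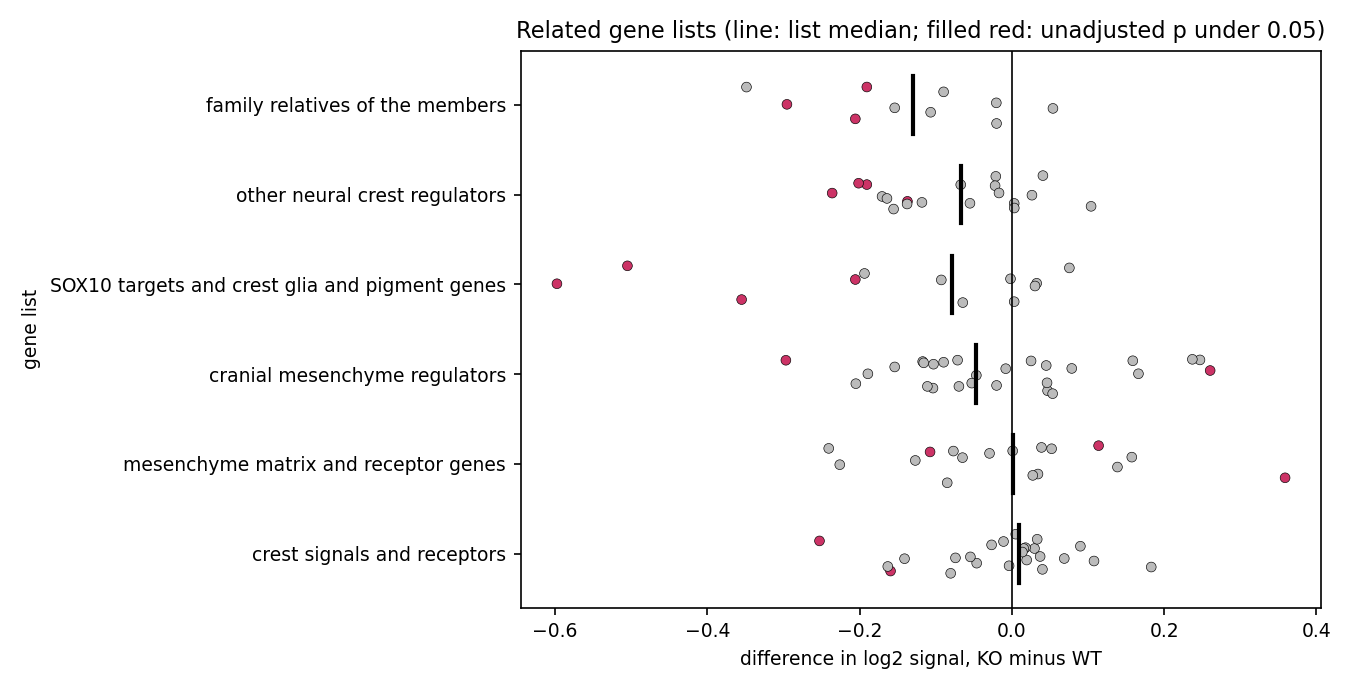
Difference in log2 signal, KO-labelled minus WT-labelled heads (horizontal axis), of every measured gene in the 6 related lists (rows, 1 point per gene, the black line being the list median). Red points have an unadjusted p under 0.05, and no point passed adjustment over all probe sets.

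Markers of other tissues in the dissected head were read beside these results. The mean log2 signal over 11 neuroepithelial markers ran from 10.48 to 10.55 in KO-labelled and from 10.53 to 10.68 in WT-labelled heads, and that over 9 neuron markers from 9.62 to 10.04 in KO-labelled and from 9.85 to 10.11 in WT-labelled heads. All 9 neuron markers read lower in KO-labelled heads, where 56.3% of all probe sets did, with a median of −0.12. Of these, Dcx (−0.12) was 0.04 without KO 3, and Map2 (−0.03) was 0.04 without WT 1. The median of the 4 crest regulators was −0.13, a value between those of Tfap2b (−0.053) and Foxd3 (−0.22) that no crest regulator had itself. Surface ectoderm markers had means from 8.32 to 8.36 in KO-labelled and from 8.30 to 8.43 in WT-labelled heads, and placode and sensory ganglion markers from 8.60 to 8.81 and from 8.64 to 8.79 in KO-labelled and WT-labelled heads. The part that these tissues have in the lower Sox10 and Foxd3 signals was not tested.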

How the data were processed

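Per the labels' protocols, 100 ng of total RNA per head was labelled with biotin and hybridised to Affymetrix arrays. The deposited table holds log2 signals, 1 per probe set and array. Its values ran from 2.73 to 14.4, with array medians from 7.35 to 7.45, and were used as deposited with no further scaling. Affymetrix Expression Console and MAS5 appear in the submitters' processing notes; the steps for background, scaling and summarising probes are not given in the sources used here.

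Genes were named from the platform annotation: 21789 probe sets had 1 symbol, 1621 several (0 of them with a regulator described here) and 12146 none listed. Chromosomes come from the RefSeq gene table of GRCm38.p6.

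All 1-symbol probe sets were fitted with limma 3.58.1 (R 4.3.3; lmFit, and eBayes with a variance trend). Tests were two-sided, adjusted by Benjamini-Hochberg over every probe set fitted, at a threshold of 0.05. The procedure was tested on simulated data, and the outcome is not given here. Exact permutation tests over the 6 heads cannot go below p = 0.1. The number of arrays limits the precision. The brightness limit, used for likeness and as an alternative filter, left out the dimmest 40% (log2 signal up to 7.06). List genes with several probe sets are given by the brightest. Named were all 9 regulators, up to 4 genes per list with the smallest unadjusted p under 0.05, and the 5 most alike profiles; other genes were chosen after their values were seen. The regulators and lists were chosen with earlier results of these data known.

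Replicate numbers 1 to 3 recur in both groups, but no label states a pairing, so the fit has no block.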

Additional observations from a re-analysis of the deposited data

How the results depend on the processing

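Under the 15 alternatives, 0 of the 9 regulators and 0 of the related genes passed the adjusted test in limma. Sox10 and Foxd3 kept their direction in every alternative that tested them (Sox10 from −0.45 to −0.26, Foxd3 from −0.26 to −0.13; Foxd3 was below the brightness limit and not tested with the 40% filter). The groups of Sox10 and Foxd3 did not overlap, so leaving out 1 head could not reverse the sign of either. The differences of the other regulators were near 0 and their sign was not stable. With each array centred on its median, Prrx2 was −0.010 and Twist1 −0.025, and with quantile normalization Twist1 was −0.010; those scalings moved the median of all probe sets to −0.04 and −0.03. Leaving out 1 head at a time gave ranges of −0.14 to 0.046 for Alx1, −0.071 to 0.032 for Alx4, −0.17 to 0.19 for Prrx1, −0.055 to 0.072 for Prrx2, −0.070 to 0.047 for Twist1, −0.089 to 0.033 for Tfap2a and −0.098 to 0.030 for Tfap2b. All 9 regulators read lower in KO-labelled heads without KO 1 or without WT 1. The 23 list genes with the lowest unadjusted p in their lists, named by the rule, kept their direction in each of 342 refits. They were picked for a low p in these same heads, so their kept direction adds no support. Of the smaller differences in the text, those of Twist2, Snai1, Mitf, Erbb3, Ngfr, Ret, Kit, Pdgfra, Col1a2, Fgf8, Bmp4, Dcx and Map2 changed sign with 1 head left out (Twist2 was 0.045 without KO 3). Over all probe sets the number past the threshold was 0 as reported, 2 with 1 probe set per gene, 9 with unnamed and several-symbol probe sets included, and 0 to 8 with 1 head left out (8 without KO 1 and 1 without WT 1); the cause was not tested. With the replicate number as a block, 0 probe sets passed, Sox10 had an unadjusted p of 0.019 and Foxd3 one of 0.053. Deviations of same-numbered heads correlated at −0.14, −0.14 and −0.29, so the numbers were not taken as pairs.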

Other observations

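Among the markers of other tissues, 0 of 54 measured genes passed the adjusted test in limma, the lowest adjusted p being 0.296, that of Lhx2. Surface ectoderm markers differed in both directions: the tight-junction gene Cldn6 differed by −0.32 and Cdh1, which encodes E-cadherin, by 0.16, each with groups that did not overlap, and 4 of 11 such markers had groups that did not overlap where 10.9% of all probe sets did. Of the neuroepithelial markers, the forebrain genes Lhx2 (−0.33) and Emx2 (−0.32) and the progenitor gene Prom1 (−0.12) had an unadjusted p under 0.05, as did the neuronal genes Neurod1 (−0.46) and Nefm (−0.28), where 3.89% of all probe sets were lower at that level. Without WT 1 the Prom1 difference was −0.079, and the Nefm difference was −0.155 without WT 2 and −0.18 without KO 3. Endothelial markers had a median difference of −0.00094 and head muscle markers one of −0.07, with 0 genes in either list at an unadjusted p under 0.05. Placode and sensory ganglion markers had a median of −0.02.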
